A study of Mus musculus with 4 samples.

Results

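The transcripts described here are those of 10 genes of the hepatic circadian clock and its PAR-bZIP output: Clock, Arntl, Per1, Per2, Per3, Cry1, Bhlhe40, Dbp, Tef and Nfil3. They were chosen by name, as every probe set that the array annotation assigns to 1 of these genes and to no other. This gave 13 probe sets out of 12422, and 10 genes out of 8251. Of these, 9 probe sets, 1 for each of 9 genes, were bright enough to be tested, among 7241 probe sets and 5510 genes tested in all. The rule itself reads no measured value, but the genes were listed with earlier results of these data known. The brightness filter used the mean over all 4 arrays.

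Liver RNA was measured on 4 Affymetrix MG_U74Av2 arrays, 2 from control mice and 2 from hepatic reductase null mice, both numbered replicates 7 and 8. The reductase is taken to be NADPH-cytochrome P450 oxidoreductase, encoded by Por, the electron donor of microsomal cytochromes P450. The mouse line known by this name lacks Por in hepatocytes, through Cre recombinase driven by the albumin promoter. No probe set here carries the name Por, so the genotype labels were not checked on that gene. Strain, sex, age, time of day at sampling and feeding state are not given in the labels, and none of them can be told apart from genotype. Per the labels, each experiment pooled 3 animals of a genotype, but the control titles name a mouse. Pool and animal cannot be told apart here, and the p-values measure only the spread between these arrays, which may be technical. Values are signal intensities scaled by the authors to total chip fluorescence.

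The clock is a transcriptional feedback loop. CLOCK and BMAL1, the product of Arntl, bind E-box sequences as a pair and activate Per, Cry, Bhlhe40, Dbp and Tef, and the PER and CRY proteins then inhibit the pair. In liver DBP, TEF and HLF, activators of the PAR-bZIP family, bind D-box sequences in genes of drug and lipid metabolism, where NFIL3 acts as a repressor, and most of these transcripts vary strongly over the day.

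The binding sequences in question can be read in the promoters of several of these genes. RefSeq windows of 300 bases, from 250 before to 50 after an annotated start (GRCm38.p6), were found for 8 of the 10 genes, 13 windows in all. Bhlhe40 and Per2 had no window. Both strands were searched for the E-box CACGTG, the D-box TTATGTAA, the D-box palindrome TTACGTAA and the ROR element TAGGTCA, none of which overlapped another in these windows. At least 1 match lay in 7 of the 13 windows. Of 32851 windows of all genes, 7.15% held the E-box, 0.938% the D-box, 0.119% the palindrome and 2.61% the ROR element. The stretches around the matches are shown so that the letters and their surroundings can be read, with the motif in capitals. A match is a description and not evidence of binding.
Tef, first start, chr15:81802521-81802576, plus strand: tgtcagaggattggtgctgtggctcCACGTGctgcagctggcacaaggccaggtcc
Tef, second start, chr15:81811251-81811306, plus strand: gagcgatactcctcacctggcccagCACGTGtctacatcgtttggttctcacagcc
Per1, chr11:69098758-69098813, plus strand: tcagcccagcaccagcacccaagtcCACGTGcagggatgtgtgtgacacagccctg
Cry1, chr10:85185084-85185139, minus strand: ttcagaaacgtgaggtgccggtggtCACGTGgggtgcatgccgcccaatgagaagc
Per3, chr4:151044791-151044895, minus strand: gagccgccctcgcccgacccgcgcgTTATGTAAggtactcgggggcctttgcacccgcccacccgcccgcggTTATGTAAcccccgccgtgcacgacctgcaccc
Arntl, second start, chr7:113207531-113207560, plus strand: aggcagaaagTAGGTCAgggacggaggtgc
Nfil3, chr13:52981040-52981076, minus strand: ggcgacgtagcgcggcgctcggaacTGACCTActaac

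Positions are counted in bases from the annotated start, negative before it. The E-boxes of Tef began at -127 and -138, that of Per1 at -166 and that of Cry1 at -60. Per3 held 2 copies of the D-box, beginning at -205 and -158. The ROR element of Arntl began at 31. That of Nfil3 began at -12 on the opposite strand, so its capitals show the reverse complement. No match was found in the windows of Clock and Dbp, the first start of Arntl or the second start of Per1, which says only that these letters are not in those 300 bases.

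**Figure D1:**
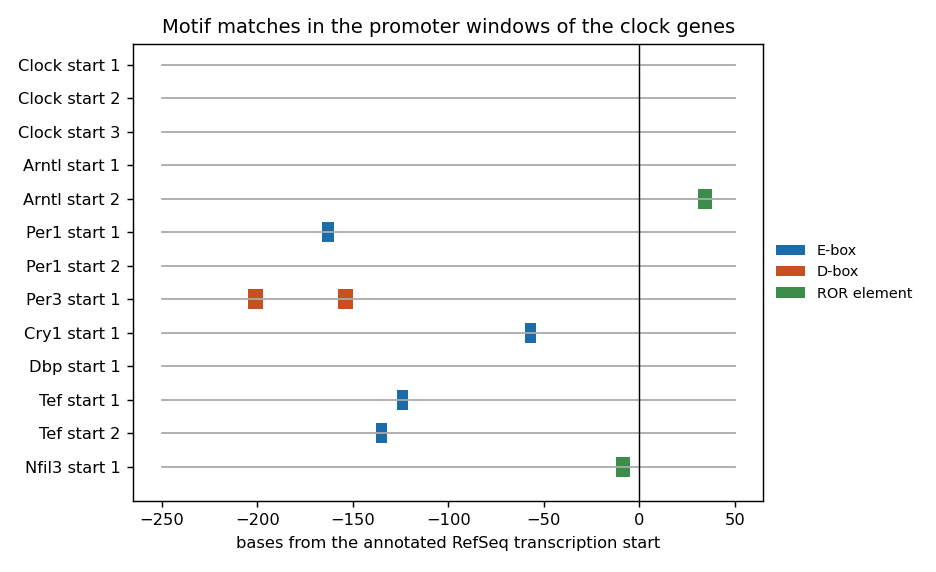
Position of each motif match, in bases from the annotated start (x axis), in the 13 RefSeq promoter windows of 8 genes (rows); colours mark the motif. Each window of Tef, the first window of Per1 and the window of Cry1 hold an E-box upstream of the start. The window of Per3 holds 2 D-boxes.

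Before the comparison, 1 array stands apart. Null replicate 7 carried pancreatic acinar transcripts: the summed signal of 7 such genes was 3124.4 on that array, against 278.4 and 397.8 in the controls and 303.9 in null replicate 8. Of these genes Reg1 was also higher on null replicate 8, at 65.4, against 5.7 and 11.8 in the controls. The summed signal of 11 hepatocyte markers was 45589.2 and 46209.9 in the controls and 43822.3 and 41526.0 in the null livers. These sums were carried by the brighter genes, as Hpd read from 57.8 to 70 and Ass1 from 88.5 to 140.2. Of the 11, 0 passed the test. At an unadjusted p under 0.05, however, 5 of the 11 lay lower in the null livers, as Tef and Bhlhe40 did, where 6.46% of all probe sets did: Tdo2 (log2 -0.38), Ttr (-0.63), Fgb (-0.38), Apoh (-0.18) and Fabp1 (-0.21). Alb (0.02), Apoa1 (0.03), Apoa2 (0.07), Hpd (0.17) and Ass1 (0.28) had positive differences, and Cps1 (-0.04) was above that p. The median over the 11 was log2 -0.04. Macrophage and Kupffer cell markers gave higher sums in the null livers (2481.5 and 2772.3, against 1947.3 and 1886.1 in the controls). Of these 12, 2 rose, Mpeg1 and Mmp12, where 0.387% of all probe sets passed. Mmp12 read 5.7 and 2.5 in the controls, under the signal floor of 7.1. The differences were positive for 11 and negative for 1, the Kupffer cell gene Clec4f (log2 -0.01), with a median of 0.29. Stellate cell and fibroblast markers also summed higher (1336.6 and 1599.3, against 1020.0 and 1084.1). Most of each sum was Dcn, which read 1029.2 and 1183.5 in the null livers and 838.4 and 843.9 in the controls. Of 6 such markers tested, 0 passed and 6 had a positive difference, where 51.5% of all genes tested had a negative one. The 2 erythroid genes summed lower (6100.2 and 5802.4, against 7603.1 and 7215.6). Endothelial sums ran from 203.8 to 258.9, T, B and plasma cell sums from 78.1 to 104.7, and neutrophil sums from 26.5 to 84.6. In these whole-liver samples fewer cells of a type and less RNA per cell cannot be told apart, and the part of these markers in the results below was not tested.

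No clock or PAR-bZIP gene passed the test: 0 of 9 had an adjusted p under 0.05 in limma with Benjamini-Hochberg adjustment, where 0.387% of all probe sets tested (28 of 7241) did. The lowest adjusted p-values were those of Tef (0.131) and Bhlhe40 (0.166). Both lay lower in both null arrays than in either control, by log2 -0.75 and -0.66, with unadjusted p-values of 0.00273 and 0.00488. At an unadjusted p under 0.05, 2 of 9 lay lower in the null livers, where 6.46% of all probe sets did. Per1, Cry1, Bhlhe40 and Tef, 4 of the 9, lay lower in null liver with no overlap between the groups, where 23.4% of all probe sets did. None of the 9 lay higher with no overlap, where 20.4% of all did. The fitted difference was negative for 8 of the 9 genes and positive for Per3, and 51.5% of all genes tested had a negative one. The median difference was log2 -0.31 over the 9, beside -0.01 over all 5510 genes.

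**Figure D2:**
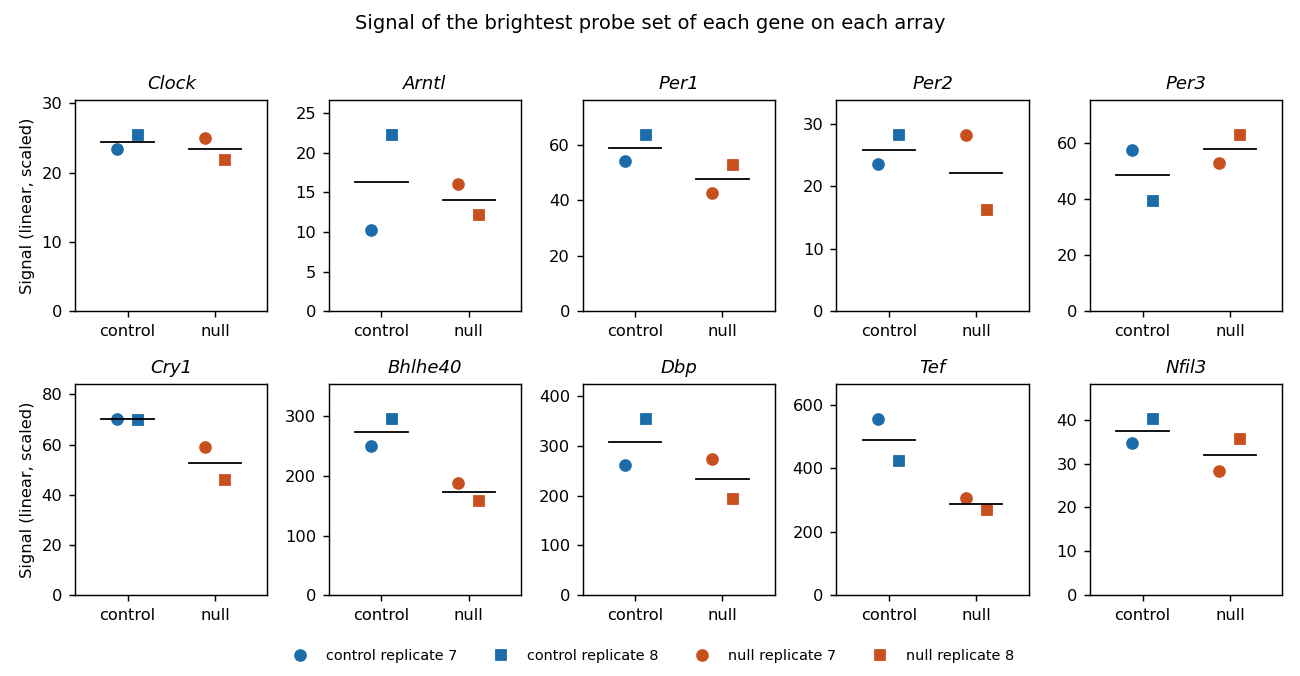
Signal of the brightest probe set of each of the 10 genes (panels; y axis, linear scaled signal) on the 4 arrays, control in blue and null in orange, each point 1 array and each line a group mean. Tef, Bhlhe40, Per1 and Cry1 show both null points under both control points, while Clock, Arntl, Per2, Per3, Dbp and Nfil3 overlap.

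The activator genes come first. Clock encodes the partner of BMAL1 and a DNA-binding subunit of the pair. Its probe set read 23.4 and 25.4 in the controls and 25 and 21.8 in the null livers. The groups overlapped, with a difference of log2 -0.06 ± 0.37 (SE; 95% interval -0.94 to 0.81; adjusted p = 0.967). Arntl was too dim to be tested: it read 10.3 and 22.2 in the controls and 16 and 12.2 in the null livers. Its mean log2 signal of 3.86 did not reach the brightness filter, set at a signal of 16.8. All 4 values lay above 7.1, the floor below which signals were not distinguished. Both null values fell between the control values, so this array gave no usable comparison for the obligate partner of CLOCK.

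Among the inhibitors, the Per genes did not share a direction. Per1, an early and light-responsive member of the family, read 54.2 and 63.5 in the controls (mean 58.9 ± 6.58, SD, n = 2) and 42.6 and 52.7 in the null livers (47.7 ± 7.14). Both null values lay under both controls, but the gap between the nearest, 52.7 and 54.2, was smaller than the spread within either group. The difference was log2 -0.31 ± 0.23 (-0.86 to 0.24; adjusted p = 0.635), and from -0.46 to -0.16 with 1 array left out. Per2, a core repressor of the loop, read 23.6 and 28.2 in the controls and 28.2 and 16.2 in the null livers. Null replicate 7 equalled the higher control and null replicate 8 lay below both, so the fitted log2 -0.27 ± 0.43 (-1.30 to 0.76; adjusted p = 0.838) came from 1 array. Without null replicate 8 it was 0.13.

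Per3, which is dispensable for the core loop, was the 1 member with a positive difference. It read 57.7 and 39.4 in the controls (48.6 ± 12.9) and 53 and 62.8 in the null livers (57.9 ± 6.93). The lower control, replicate 8, stood apart from the other 3 arrays, and the groups overlapped. The difference of log2 0.28 ± 0.26 (-0.35 to 0.90; adjusted p = 0.719) came to 0.00 when that control was left out.

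Cry1, a strong repressor of CLOCK and BMAL1, was read by 3 probe sets, of which only the brightest, of the _f_at class, lay above the floor. It gave 70.2 and 69.9 in the controls (70.1 ± 0.212) and 59.2 and 45.8 in the null livers (52.5 ± 9.48). The controls were nearly equal, and both null values lay below them. The difference was log2 -0.43 ± 0.22 (-0.95 to 0.09; adjusted p = 0.479), and from -0.61 to -0.24 with 1 array left out. A probe set of this class can bind related transcripts. The other 2 probe sets read at or under the floor on every array, from 0.2 to 6.3, and have no order. Averaged over all 3 probe sets the difference was -0.14, with those at the floor counted as no difference.

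Bhlhe40, also known as Dec1, encodes a repressor that competes for E-boxes. It read 250 and 295.7 in the controls (272.9 ± 32.3) and 187.9 and 157.4 in the null livers (172.7 ± 21.6). The lowest control exceeded the highest null value by more than either group's own range. The geometric mean in the controls was 1.58 times that in the null livers, a difference of log2 -0.66 ± 0.16 (-1.04 to -0.28), and it ranked 212 by p among the 7241 probe sets (adjusted p = 0.166). Of all genes tested, 3.76% had a difference this low or lower.

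Of the PAR-bZIP activators, Tef showed the lowest difference of the set. Thyrotroph embryonic factor binds the D-box as a dimer, and in mice it acts partly redundantly with DBP and HLF. It read 555.1 and 422.4 in the controls (488.8 ± 93.8) and 307.2 and 269.7 in the null livers (288.4 ± 26.5). Both null values lay below both controls, and the gap between the groups was smaller than the gap between the control arrays. The geometric mean in the controls was 1.68 times that in the null livers, and the difference was log2 -0.75 ± 0.16 (-1.14 to -0.36; adjusted p = 0.131, rank 150 by p). Of all genes tested, 2.89% had a difference this low or lower, and 151 probe sets had an adjusted p at or below that of Tef.

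Dbp, the archetypal clock output gene of the liver, did not separate the groups. It read 262.1 and 354 in the controls (308.1 ± 65.0) and 274.4 and 193.3 in the null livers (233.8 ± 57.4). Null replicate 7 lay above control replicate 7. The difference was log2 -0.40 ± 0.22 (-0.92 to 0.12; adjusted p = 0.512), and from -0.66 to -0.15 with 1 array left out. The interval includes values as low as that of Tef, but a difference between the 2 genes was not tested. The log2 ratio of Tef to Dbp was 1.083 and 0.255 in the controls and 0.163 and 0.481 in the null livers, so the groups overlapped.

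Nfil3, the repressor at D-boxes, read 34.7 and 40.2 in the controls and 28.4 and 35.7 in the null livers with its brighter probe set. The groups overlapped, with a difference of log2 -0.23 ± 0.29 (-0.92 to 0.46; adjusted p = 0.794), and from -0.40 to -0.07 with 1 array left out. A second probe set, of the _f_at class, read 28.7 and 17.5 in the controls and 8.1 and 1.7 in the null livers. It was too dim to be tested, and its null values lay near or under the floor. Its log2 difference was -1.56 at the floor of 7.1 and -0.04 at a floor of 27.1, so its size is set by the treatment of low signals. The mean over both probe sets, -0.90, carries that same limit.

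**Figure D3:**
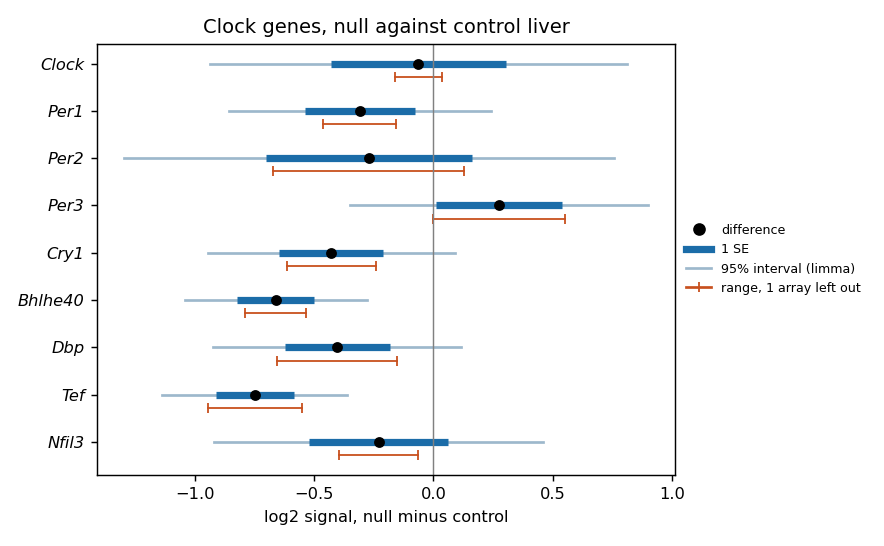
Log2 difference, null minus control (x axis), for the 9 genes tested, with 1 SE as the thick bar, the limma 95% interval as the thin bar and the range over fits without 1 array beneath it. The intervals of Tef and Bhlhe40 lie wholly below 0 before adjustment over all probe sets, and those of the other 7 genes include 0.

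A comparison of each null array alone with the controls was added after the data had been seen. Null replicate 7 lay below both controls for 5 of the 9 genes (Per1, Cry1, Bhlhe40, Tef and Nfil3), where 39.6% of all probe sets did. It lay above both for none, where 33.8% of all did. Null replicate 8 lay below both for 7 of the 9 (Clock, Per1, Per2, Cry1, Bhlhe40, Dbp and Tef), where 36.5% of all did. It lay above both for 1, Per3, where 36.9% of all did. Without null replicate 7 the differences of Tef and Bhlhe40 were log2 -0.84 and -0.79, and the median over the 9 genes was -0.61. Without null replicate 8 the differences were -0.66 and -0.53 and the median was -0.24, and without control replicate 8 the median was -0.19.

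**Figure D4:**
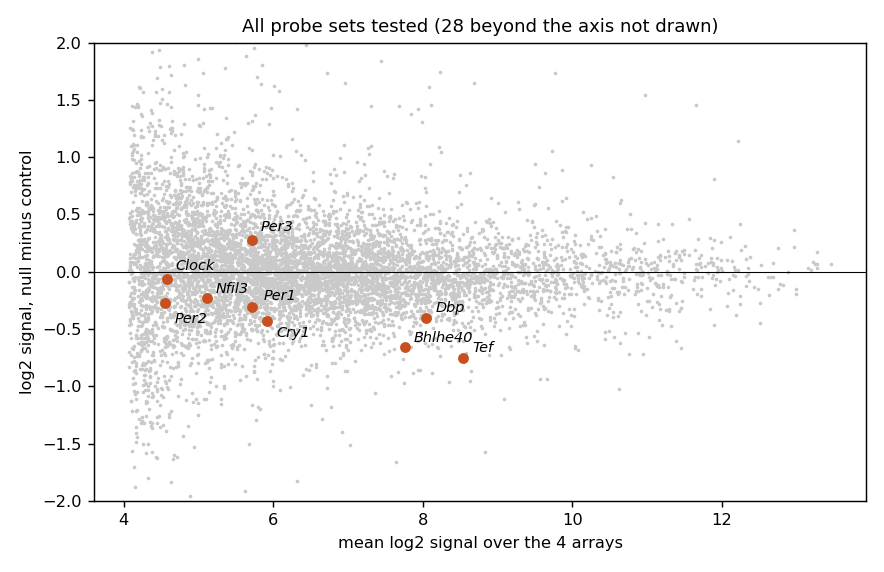
Log2 difference, null minus control (y axis), against mean log2 signal (x axis) for the 7241 probe sets tested, with the 9 clock and PAR-bZIP genes marked; 28 probe sets lie beyond the axis limit of 2. Most of the marked genes lie within the cloud of all probe sets, with Tef and Bhlhe40 near its lower edge.

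The other genes of the clock, 24 listed and 14 tested, gave 0 that rose and 0 that fell, where 0.387% of all probe sets passed. At an unadjusted p under 0.05, 2 of the 14 lay lower, where 6.46% of all probe sets did. The differences of the 14 were positive for 7 and negative for 7, with a median of log2 -0.06. That median was -0.13 without control replicate 7, -0.14 without control replicate 8 and -0.18 without null replicate 8. Nampt, the rate-limiting enzyme of NAD salvage and an E-box target, read 177.8 and 196.5 in the controls and 133.5 and 148.6 in the null livers (log2 -0.41 ± 0.15; adjusted p = 0.341). Rora, an activator at ROR elements, read 118.6 and 85.3 against 70.5 and 64.4 (-0.58 ± 0.22; adjusted p = 0.344). Both had lower values on each null array than on either control, and so did Id2, Nr1d1 and Wee1. Of all probe sets tested, 23.4% lay lower with no overlap. Id2, an inhibitor of helix-loop-helix factors, read 599.5 and 669.2 against 493.5 and 567.4 (-0.26 ± 0.12; adjusted p = 0.447). Nr1d1, the REV-ERBα repressor of Arntl, read 246.1 and 280.7 against 218.1 and 224.3 (-0.25 ± 0.14; adjusted p = 0.513). Nampt, Rora, Id2 and Nr1d1 had the 4 smallest p-values of the list, and all 4 were lower without passing the test.

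Of genes known as targets of the PAR-bZIP factors, 17 listed and 11 tested, 2 rose, Cyp3a11 and Cyp2b10, and 0 fell. Over all probe sets tested, 0.387% passed in either direction. The differences were positive for 7 and negative for 4, with a median of log2 0.29. The negative ones were those of Aadac (log2 -0.38), Abcg2 (-0.29), Nr1i3 (-0.22) and Gstt1 (-0.03). The median was 0.06 without null replicate 7, the array with pancreatic transcripts, and 0.13 without control replicate 7. Cyp3a11, a main drug-metabolising P450 of mouse liver, read 2789.5 and 2973.9 in the controls and 4795.9 and 5293.3 in the null livers (log2 0.81 ± 0.08; adjusted p = 0.021). Cyp2b10, the phenobarbital-inducible P450, read 3.1 and 19.3 against 265.8 and 638.3 (adjusted p = 0.0253), with 1 control under the floor, so the size of its log2 5.14 depends on that floor. Both lay higher on the null arrays, where Tef lay lower without passing the test. A link between these genes and Tef was not tested. Cyp7a1, the rate-limiting enzyme of bile acid synthesis, read 86.1 and 97.4 against 243.9 and 441.7 (1.84 ± 0.28; adjusted p = 0.0605). Cyp2c29 read 52.5 and 94.5 against 202.8 and 239 (1.64 ± 0.28; adjusted p = 0.0803). Other regulators of these P450 genes include the nuclear receptors CAR and PXR, whose part in these values was not tested.

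Targets of ROR and REV-ERB, 9 tested apart from the clock genes themselves, gave 1 that rose and 1 that fell. Of all probe sets tested, 0.387% passed in either direction. The median of these targets was log2 0.07. The median was 0.00 without null replicate 7, 0.16 without control replicate 8 and 0.19 without null replicate 8. Cyp8b1, the sterol 12α-hydroxylase of bile acid synthesis, read 967 and 1425.9 in the controls and 3352.2 and 3508.9 in the null livers (log2 1.55 ± 0.17; adjusted p = 0.0261). Cyp7b1, of the alternative bile acid pathway, read 1101.2 and 1146.3 against 569.9 and 603.4 (-0.94 ± 0.10; adjusted p = 0.021). The 2 enzymes thus moved in opposite directions, while Lpl (0.39 ± 0.23; adjusted p = 0.527) and Avpr1a (-0.47 ± 0.39; adjusted p = 0.674) did not pass.

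Lists of genes that follow temperature and serum signals, or glucocorticoids and feeding, were read because such signals are known to set the phase of the liver clock. Of the temperature and serum genes 0 of 10 passed, where 0.387% of all probe sets did. The differences were positive for 9 of the 10, where 51.5% of all genes tested had a negative one. Their median was log2 0.52. The 4 smallest p-values were those of the chaperone Hsph1 (0.69 ± 0.15; adjusted p = 0.131), the actin gene Actg1 (0.62 ± 0.15; adjusted p = 0.166), and the heat shock genes Hspa1a (1.12 ± 0.34; adjusted p = 0.253) and Hspa1b (1.45 ± 0.54; adjusted p = 0.341). Hspa1b read 62 and 147 in the controls and 429.5 and 158 in null replicates 7 and 8, so null replicate 8 lay close to 1 control. Hsph1 read 136.7 and 159.2 against 239 and 235.4. The median of the temperature and serum genes was 0.498 without null replicate 7 and 0.449 without null replicate 8. It was 0.531 without control replicate 7 and 0.695 without control replicate 8. Of 16 glucocorticoid and feeding genes tested, 2 rose and 0 fell, where 0.387% of all probe sets passed. The median difference of these 16 was log2 -0.09. That median was -0.15 without control replicate 8 and -0.18 without null replicate 7, -0.05 without control replicate 7 and was positive (0.03) without null replicate 8. The genes that rose were the metallothioneins: Mt2 read 90.7 and 126.6 against 739.1 and 849.6 (2.89 ± 0.19; adjusted p = 0.00437), and Mt1 read 185.3 and 108 against 733.7 and 735.8 (2.38 ± 0.24; adjusted p = 0.021). Igfbp1, a fasting-responsive gene (2.30 ± 0.41; adjusted p = 0.0839), and Srebf1, a feeding-responsive regulator of lipogenesis (-0.94 ± 0.14; adjusted p = 0.0551), did not pass. These values stand beside those of the clock genes, and their part in them was not tested.

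**Figure D5:**
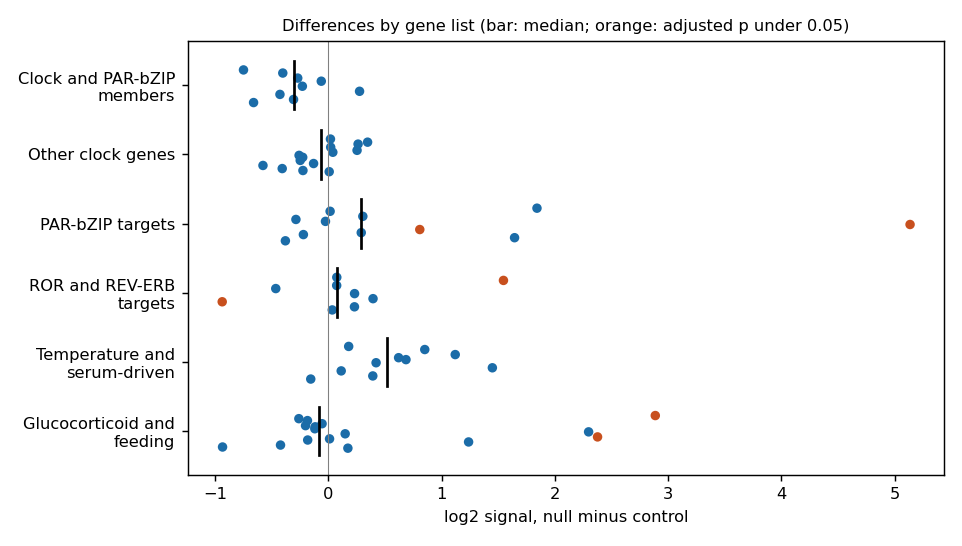
Log2 difference, null minus control (x axis), of each gene tested in the clock set and in 5 related lists (rows), with the median of each list marked. The clock set has its median at -0.31 and no gene that passed, while the PAR-bZIP target list has its median at 0.29. Without null replicate 7 these medians were -0.61 and 0.06.

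The genes whose pattern over the 4 arrays was most like that of a member were found by the root mean square difference of log2 signals, each centred on its own mean, among 5501 other genes. With 4 arrays this measure is a description. Nearest to Tef were Sox7 (0.041), the complement gene C9 (0.058) and Traf6 (0.064). Nearest to Bhlhe40 were Rnf167 (0.033), Wdtc1 (0.046) and the hepatocyte-expressed activin subunit gene Inhbc (0.047). Nearest to Dbp were Pafah1b3 (0.015), Rflnb (0.043) and Rnpep (0.053). C9, for example, read 2422.3 and 2047.6 in the controls and 1467.1 and 1241.8 in the null livers, the same order of arrays as Tef. None of these 9 genes passed the test, with adjusted p-values from 0.0763 (C9) to 0.75 (Rflnb).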

How the data were processed

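The deposited values are signal intensities per probe set. The authors computed them in GCOS and scaled each array to its total fluorescence, per the labels' protocols. No GCOS version or target was given in the sources used here. Of 12488 probe sets, 66 manufacturer's controls were left out. Of the rest, 10833 carried 1 gene symbol, 396 several and 1193 none, and names were updated by gene ID to GRCm38.p6 for 10817.

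Signals were floored at 7.1 (the 25th percentile), taken to log2 and tested where the mean exceeded 16.8 (the 40th percentile). Genotype was tested two-sided with limma 3.58.1 in R 4.3.3 (eBayes with an intensity trend), adjusted by Benjamini-Hochberg over 7241 probe sets at 0.05. The variance carried 6.78 degrees of freedom, 2 of them from the arrays, whose number limits the precision. An exact permutation test of 2 against 2 cannot go below 0.333 and was not used. The script was also run on simulated data drawn from the fitted variance model, which cannot check whether that model holds for these arrays. A gene was represented by its brightest probe set.

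The members and lists were chosen with earlier results of these data known. Named are every member, up to 4 genes per list with the smallest p, and the 3 genes most like Tef, Bhlhe40 and Dbp. Mpeg1, Mmp12, Clec4f, Reg1, Dcn, Aadac, Abcg2, Gstt1, the hepatocyte markers and the genes in the other observations were named after their values were seen. Alternatives changed the floor, filter, scaling, trend, replicate block, probe set rule and arrays included.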

Additional observations from a re-analysis of the deposited data

How the results depend on the processing

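With 2 arrays a group the test resolves only large differences. The count of clock and PAR-bZIP probe sets that passed in limma was 0 under all 11 alternatives to the fit, with 2 at an unadjusted p under 0.05 as analysed. The adjusted p of Tef ranged from 0.0782 to 0.535 and that of Bhlhe40 from 0.128 to 0.524, with both differences negative throughout. The difference of Clock ran from -0.161 to 0.036 and that of Per2 from -0.671 to 0.128, each turning positive without null replicate 8. Leaving out 1 array gave a median over the 9 genes from -0.61 (without null replicate 7) to -0.19 (without control replicate 8), against -0.31. The total of called probe sets, 28, was 1 with the floor at the 50th percentile, 0 without a filter and 0 without an intensity trend (914 at an unadjusted p under 0.05 as analysed), and 10 to 15 without 1 array: 10 without control replicate 7, 13 without control replicate 8, 15 without null replicate 7 and 11 without null replicate 8. The cause was not tested. With a lone array in a group, that array is assumed to vary like the other group. The replicate block gave 52 calls, 0 of them clock genes. The labels do not say that shared replicate numbers pair the arrays, and the deviations of same-numbered arrays correlated at -0.03 over 7241 probe sets.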

Other observations

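Further genes near the clock had several probe sets, and some of these disagreed. Csnk1d, a casein kinase that phosphorylates PER proteins, gave log2 differences of -0.13 ± 0.15, 0.10 ± 0.14 and 1.31 ± 0.36 with 3 tested probe sets, and the last had an unadjusted p of 0.0088 and an adjusted p of 0.216. Noct, a rhythmic gene also called nocturnin, gave 0.02 ± 0.17 and 0.45 ± 0.21 with 2 tested probe sets. Usp2, a deubiquitinase with a daily rhythm in liver, gave -0.23 ± 0.19 and -0.30 ± 0.16, both negative. Wee1, a cell cycle kinase gene with E-boxes, read 48.9 and 40 in the controls and 37 and 38.7 in the null livers (log2 -0.23 ± 0.25; adjusted p = 0.761).

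Of the other repressors, Cry2 read 33.8 and 35.1 in the controls and 32.8 and 51.4 in the null livers, so the groups overlapped (0.25 ± 0.31; adjusted p = 0.783). Nr1d2, which encodes REV-ERBβ, read 103.9 and 111.5 against 94.6 and 125.5 (0.02 ± 0.19; adjusted p = 0.986). Npas2, a relative of Clock, read from 1 to 3.1 on the 4 arrays, all under the floor. Nr1i3, which encodes the nuclear receptor CAR and is known as a PAR-bZIP target, read 457.6 and 436.1 in the controls and 390.6 and 376.1 in the null livers (-0.22 ± 0.11; adjusted p = 0.479).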
